A study of Homo sapiens with 20 samples.

Results

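RNA polymerase II (POL2) sites at the promoters of long non-coding RNA (lncRNA) genes were described in PC-3, a long-used human line derived from prostate cancer. Chromatin immunoprecipitation followed by sequencing (ChIP-seq) had given 1 list of POL2 peak summits per library. Summits of 6 POL2 libraries on chromosomes 1 to 22 and X were pooled, and summits 250 bp or less apart were chained into 34426 sites. Of these, 1350 lay within 1 kb of the transcription start site (TSS) of a lncRNA gene and more than 2 kb from every protein-coding TSS, with genes whose symbols start with SNHG left out. Another 3347 sites within 1 kb of a lncRNA TSS were 2 kb or less from a coding TSS and were left out. A gene without a site here may therefore still have POL2 at a start near a coding gene. The choice used position only and no measured value.

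The 2 genotypes were wild type (WT) and a knockout of SLK, a protein kinase gene, made in the same line (SLK-KO, named PSD10 in the labels). There were 3 POL2 and 3 MYC libraries of each genotype, described as biological replicates. Cells of both genotypes were grown to 80% confluence with no drug or other treatment named, and the comparison asks how lncRNA promoters are occupied when SLK, called a co-regulator of c-Myc in the study's title, is absent. All SLK-KO libraries carry the 1 name PSD10. If PSD10 is a single line, its replicates cannot tell the knockout apart from anything else that sets that line apart.

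LncRNA genes are transcribed by POL2 as messenger RNA genes are, usually with a cap and often with splicing, but their transcripts are not translated into long proteins. Some act in the nucleus as scaffolds of bodies or of silencing complexes, some bind proteins or microRNAs in the cytoplasm, and some serve mainly as the primary transcripts from which microRNAs are cut. Many are transcribed at low levels and in few cell types, and several were named in prostate cancer.

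The 6 promoters below are printed because the results turn on them: 5 had a POL2 summit in the best-scored part of the lists or a MYC summit in all 6 MYC libraries, and LINC01730 had a MYC summit in 5 of 6 together with an E-box. Each is 201 bases of GRCh38 around the centre of the POL2 site, 5′ to 3′ on the strand of the lncRNA gene, and capitals mark any of 6 searched motifs (named with their letters further on) on either strand.
MALAT1, chr11:65498992-65499192, plus strand: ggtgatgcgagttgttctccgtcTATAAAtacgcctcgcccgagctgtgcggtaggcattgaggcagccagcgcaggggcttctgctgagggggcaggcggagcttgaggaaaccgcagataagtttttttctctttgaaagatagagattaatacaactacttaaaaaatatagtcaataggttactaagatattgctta
NEAT1, chr11:65422754-65422954, plus strand: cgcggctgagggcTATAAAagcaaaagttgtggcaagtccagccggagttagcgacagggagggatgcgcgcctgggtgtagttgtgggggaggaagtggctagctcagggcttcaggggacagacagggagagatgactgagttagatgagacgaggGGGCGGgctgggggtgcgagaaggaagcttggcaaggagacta
NORAD, chr20:36050812-36051012, minus strand: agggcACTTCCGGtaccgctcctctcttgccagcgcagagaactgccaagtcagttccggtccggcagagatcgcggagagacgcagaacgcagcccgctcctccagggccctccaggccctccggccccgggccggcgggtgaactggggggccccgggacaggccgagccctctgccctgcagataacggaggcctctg
LINC00511, chr17:72592661-72592861, minus strand: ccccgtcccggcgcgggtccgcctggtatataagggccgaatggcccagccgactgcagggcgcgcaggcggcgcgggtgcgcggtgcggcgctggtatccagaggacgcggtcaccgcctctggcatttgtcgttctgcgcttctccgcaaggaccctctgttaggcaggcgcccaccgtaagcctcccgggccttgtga
LINC01730, chr20:3808244-3808444, plus strand: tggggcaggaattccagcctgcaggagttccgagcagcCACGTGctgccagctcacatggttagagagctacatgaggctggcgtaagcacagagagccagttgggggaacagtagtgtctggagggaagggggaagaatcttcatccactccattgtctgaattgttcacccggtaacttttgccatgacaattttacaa
LINC02960, chr14:90383402-90383602, plus strand: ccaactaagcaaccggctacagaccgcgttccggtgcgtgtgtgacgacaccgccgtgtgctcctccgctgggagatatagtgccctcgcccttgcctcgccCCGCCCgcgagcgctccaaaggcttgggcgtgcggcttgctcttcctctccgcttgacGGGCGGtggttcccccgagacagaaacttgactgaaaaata
In the MALAT1 window TATAAA starts at base 24 and the annotated TSS is base 93. NEAT1 has TATAAA at base 14 with its TSS at base 51, and GGGCGG at base 159. NORAD holds the reverse complement of CCGGAAGT at base 6. The LINC00511 window, with its TSS at base 71, holds none of the 6 motifs as searched. LINC01730 has CACGTG at base 39 and its TSS at base 114, and LINC02960 has GGGCGG or its complement at bases 103 and 161.

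POL2 lists were 17126, 5047 and 9925 summits long in WT 1, 2 and 3, and 19017, 15436 and 16298 long in SLK-KO 1, 2 and 3. MYC lists were shorter, with 365, 201 and 267 entries in WT against 1218, 1420 and 988 in SLK-KO. The lists give no read counts, so sequencing depth is unknown. Of 5 epithelial marker genes, KRT8, KRT18 and CLDN4 had POL2 at a coding TSS (a summit up to 1 kb away) in all 6 libraries, EPCAM in 1 WT and 3 SLK-KO and CDH1 in 1 WT. Of 5 leukocyte or endothelial markers, 4 had none in any library and PECAM1 had one in 1 WT library. A summit list cannot show whether the SLK protein was lost.

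The 1350 sites belonged to 956 lncRNA genes. That is 6.24% of the 15313 lncRNA genes of GENCODE release 44 that have a TSS far enough from coding genes to be eligible. The zone within 1 kb of such a TSS covers 1.31% of chromosomes 1 to 22 and X and held 3.92% of POL2 sites, a ratio of 3.00. Most genes had 1 site (690 of 956), and 266 had 2 or more. Genes with more sites had more annotated TSSs, with a median of 3 TSSs in genes with 2 or more sites, 2 in all genes with a site and 1 in eligible genes without one. LINC-PINT, a p53-induced lncRNA, and LINC00511, a lncRNA reported in several tumours, had 13 sites each, over 40 and 84 annotated TSSs. MIR100HG had 11 sites over 87 TSSs, THUMPD3-AS1 had 9 over 29, and ENSG00000264112 had 7 over 3.

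Sites lay a median of 163.5 bp from the nearest lncRNA TSS and 22293.5 bp from the nearest coding TSS, and 906 (67.1%) were more than 10 kb from any coding TSS. They overlapped an exon of their gene in 713 cases (52.8%), an intron in 283 (21.0%) and neither in 354 (26.2%). Of the exonic sites 14.6% had a summit in all 6 libraries, beside 4.59% of the intronic ones. Outside coding genes lay 1072 sites (79.4%), 190 (14.1%) lay in a coding gene on the opposite strand to the lncRNA, 76 (5.63%) in one on the same strand and 12 in coding genes of both strands. ChIP-seq does not tell strands apart, so polymerase at these 278 sites inside coding genes cannot be assigned to the lncRNA or to the coding gene. Within the 1 kb limit the outermost member was a site of LINC02098 at 995 bp, and the nearest left out was one of DLEU2 at 1001 bp. At the 2 kb limit a site of NUTM2B-AS1 at 2002 bp from a coding TSS was kept, and one of ENSG00000228843 at 1964 bp was not.

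Most sites belonged to genes with no symbol beyond an accession (722, 53.5%). Genes with LINC symbols held 274 (20.3%), antisense genes 146 (10.8%), microRNA host genes 38 and divergent genes 8. In 62 of 722 accession-only sites (8.59%), 34 of 274 LINC sites (12.4%) and 8 of 38 microRNA host sites (21.1%) all 6 libraries had a summit.

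Scores in the lists are the authors' own values, taken for −log10 q-values from their lower limit, and served only to order summits or set a minimum inside 1 list. The rank percentile is 100 times the rank over the list length, so 0 is the best-scored summit. The 10 members with the best median percentile among those in all 6 libraries were led by sites beside small nuclear RNA (snRNA) genes. Of these 10, 7 had a TSS annotated with a small RNA type within 1 kb. In 6 it was that of a snRNA gene, which makes splicing RNA, and at NEAT1 that of a misc_RNA entry. ENSG00000276216 (chr1:145281274-145281315) lay 158 bp from RNVU1-14, a variant U1 gene, with ranks 3, 4 and 3 in WT and 3, 2 and 3 in SLK-KO. ENSG00000285646 lay 77 bp from RNU5E-1 and ranked 12, 13 and 7 in WT and 9, 13 and 7 in SLK-KO. ENSG00000261135 lay 213 bp from RNU1-1 and ranked 10, 7 and 10 in WT and 14, 12 and 13 in SLK-KO. The other snRNA neighbours were RNVU1-6 beside ENSG00000287190, RNU2-63P beside ENSG00000287670 and RNVU1-30 beside LINC00869. Polymerase there cannot be assigned to the lncRNA over the snRNA gene, and near-identical U1 copies leave the positions of such sites uncertain. In all, 48 members (3.56%) had a small RNA TSS within 1 kb, of which 17 (35.4%) were in all 6 libraries, beside 123 of 1302 others (9.45%). For 15 of the 48 the nearest was a misc_RNA entry, which may not be a gene apart from the lncRNA.

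MALAT1, an abundant nuclear RNA of splicing speckles, and NEAT1, the scaffold of paraspeckles, lie next to each other on chromosome 11 and both stood near the top of every list. The MALAT1 site (ENSG00000251562.11, chr11:65499076-65499109), whose TATAAA sits upstream of the TSS in the sequence above, ranked 30, 34 and 23 in WT and 23, 23 and 25 in SLK-KO. NEAT1 (ENSG00000245532.11, chr11:65422830-65422879) ranked 40, 43 and 52 in WT and 38, 42 and 48 in SLK-KO. Its site lay 394 bp from an entry annotated as misc_RNA, a type counted here as small RNA. Whether that entry is a gene apart from NEAT1 was not tested. The ranks of the genotypes overlapped at both genes. A further MALAT1 site, about a kilobase upstream (chr11:65497815-65497905), had summits in 2 WT and 2 SLK-KO libraries and a median percentile of 41.5.

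Among members with no small RNA TSS within 1 kb, ENSG00000287978 ranked 11, 11 and 15 in WT and 12, 5 and 9 in SLK-KO. ENSG00000290039, inside the coding gene TEX14, ranked 7, 19 and 11 in WT and 13, 15 and 16 in SLK-KO. Their nearest small RNA genes were still snRNA genes, RNVU1-29 at 10750 bp and RNU1-108P at 7504 bp. LINC00511 (ENSG00000227036.10, chr17:72592757-72592766) ranked 31, 33 and 38 in WT and 83, 82 and 102 in SLK-KO. LINC00869, beside RNVU1-30, ranked 52, 41 and 35 in WT and 22, 19 and 19 in SLK-KO. Ranks at these 2 sites did not overlap between genotypes, one going each way. As percentiles, LINC00511 did overlap (0.181, 0.654 and 0.383 in WT, 0.436, 0.531 and 0.626 in SLK-KO). LINC00869 did not (0.304, 0.812 and 0.353 in WT, 0.116, 0.123 and 0.117 in SLK-KO). The share of all POL2 sites without overlap is not given here. Ranks come from lists of different lengths and show no change by themselves.

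Of the 11 lncRNAs listed for housekeeping and growth, 10 were annotated as lncRNA genes and all 10 were eligible. Sites were found at 8 of them, 14 in all, of which 5 were in all 6 libraries: MALAT1, NEAT1, NORAD, DANCR and EPB41L4A-AS1. NORAD, which binds PUMILIO proteins, ranked 306, 225 and 441 in WT and 365, 249 and 290 in SLK-KO (chr20:36050893-36050931). DANCR, a lncRNA of undifferentiated cells, ranked 1031, 831 and 1667 in WT and 1554, 1760 and 2099 in SLK-KO. EPB41L4A-AS1, which hosts a small nucleolar RNA, ranked 1008, 2313 and 1663 in WT and 842, 1060 and 426 in SLK-KO. The ZFAS1 site in most libraries had a summit in 3 WT and 2 SLK-KO libraries and lay 11720 bp from the nearest coding TSS. GAS5 had a summit in 1 SLK-KO library, at a site 3243 bp from the coding TSS of ZBTB37. Any summits of these genes 2 kb or less from a coding TSS were not counted. FTX, on the X chromosome, had 3 sites, and the one in most libraries had a summit in 2 WT and 2 SLK-KO libraries. CRNDE and OIP5-AS1 had no site under the rule used, which does not show that their promoters lacked POL2. The median percentile over the 14 sites was 41.7, beside 66.9 over all POL2 sites and 59.7 over all 1350.

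MicroRNA host genes formed the longest list, with 77 eligible genes of which 16 had 39 sites. MicroRNA host transcripts are cut by Drosha to release the precursors. Of these 39 sites, 8 were in all 6 libraries: those of MIR181A1HG, MIR181A2HG, MIR31HG, MIR130AHG, MIR100HG, MIR762HG, MIR548XHG and MIRLET7BHG. MIR100HG, host of a miR-100, let-7 and miR-125 cluster, ranked 778, 983 and 1257 in WT and 555, 892 and 727 in SLK-KO (chr11:122156950-122157126). MIRLET7BHG, host of let-7b, ranked 1196, 914 and 1136 in WT and 884, 1261 and 1305 in SLK-KO. MIR181A1HG ranked 3892, 1792 and 2074 in WT and 1007, 589 and 777 in SLK-KO. Its percentiles were 22.7, 35.5 and 20.9 in WT and 5.3, 3.8 and 4.8 in SLK-KO. This was 1 of the 39 sites, and the difference was not tested. MIR222HG, host of miR-221 and miR-222, ranked 274, 249 and 266 in WT and 232 and 231 in SLK-KO 1 and 3 (chrX:45770243-45770527), and in SLK-KO 2 a separate site of the gene ranked 281. MIR17HG, host of the miR-17 to miR-92a cluster, had summits in 2 WT and 3 SLK-KO libraries at its best site.

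Lists tied to prostate cancer and to MYC gave fewer sites. Of 15 eligible prostate cancer lncRNAs, 5 had 7 sites, and PCA3 and PCGEM1, known as prostate cancer lncRNAs, had none. PCAT6 ranked 2283, 3213 and 3133 in WT and 1823, 3186 and 2120 in SLK-KO, and PCAT7 ranked 3393, 2202 and 2505 in WT and 935, 3556 and 1119 in SLK-KO. SCHLAP1, a lncRNA of aggressive prostate cancer, had a summit in 1 WT (rank 5399) and 3 SLK-KO libraries (ranks 4809, 5853 and 5106). DRAIC had one in 1 WT (rank 2838) and 3 SLK-KO libraries (ranks 2671, 1436 and 3280). In both, the WT library with a summit was the one with the longest WT list. Of 8 eligible MYC-linked lncRNAs, 4 had 9 sites. MINCR, a MYC-induced lncRNA, ranked 1007, 1797 and 1390 in WT and 844, 671 and 1124 in SLK-KO. PVT1, which neighbours MYC on chromosome 8, had 6 sites, 1 of them in all 6 libraries.

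Among lncRNAs linked to invasion and mesenchymal cells, 5 of 16 eligible genes had 30 sites, most of them the many start sites of LINC00511 and MIR100HG. HOTAIR, UCA1 and CYTOR had no site, although all 3 have been reported in carcinomas. Of 7 eligible p53 and stress lncRNAs, 3 had 17 sites, of which LINC-PINT had 13. Its best site (chr7:130912139-130912212) ranked 346 and 239 in WT 1 and 2 and 388, 485 and 397 in SLK-KO. Among 8 imprinted lncRNAs only KCNQ1OT1, the antisense silencer of the KCNQ1 domain, had a site. It ranked 531, 896 and 722 in WT and 583, 486 and 791 in SLK-KO (chr11:2699954-2699982), while H19, MEG3 and 5 others had none.

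**Figure D1:**
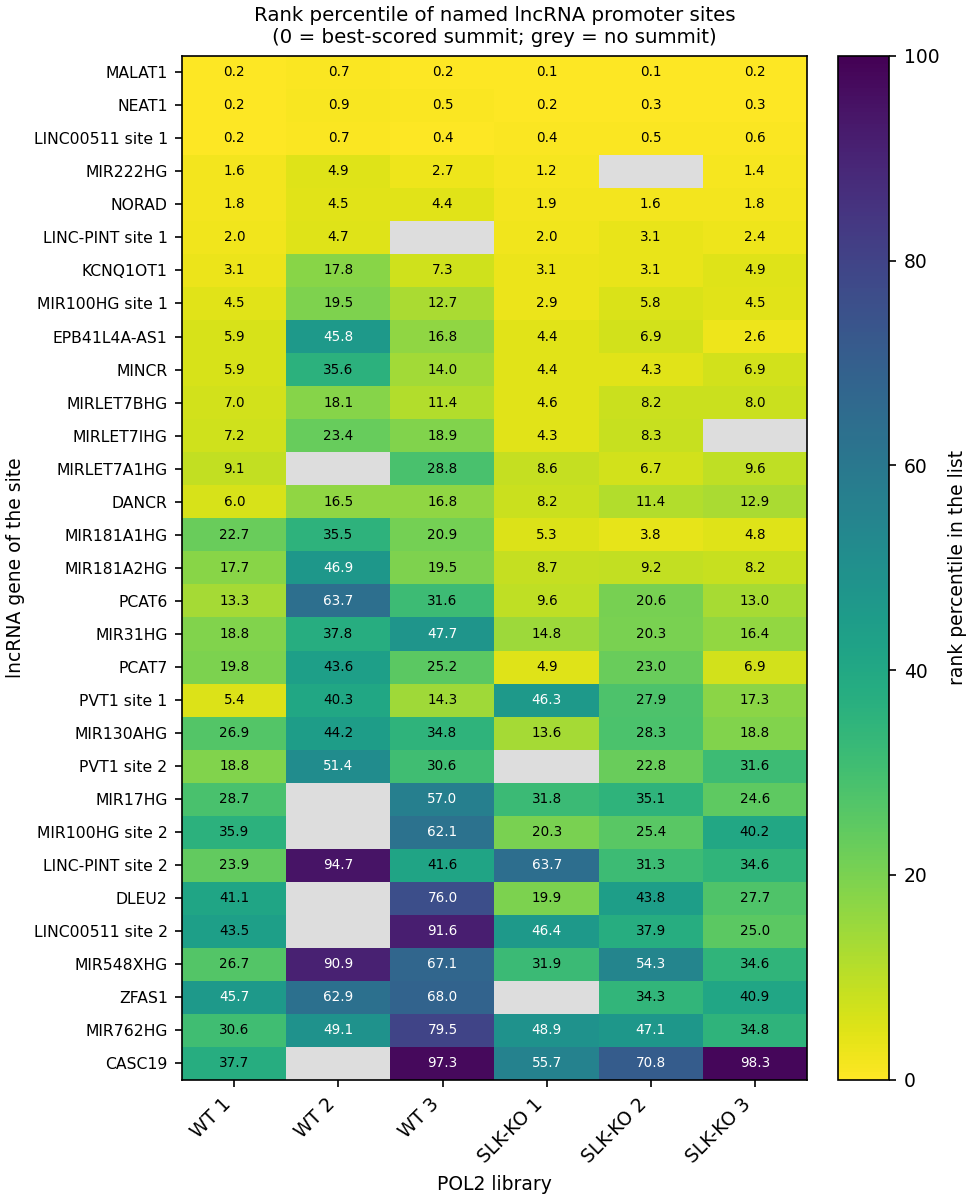
Rank percentile of 31 sites of 27 lncRNA genes in each POL2 library (columns), with 0 for the best-scored summit of a list and grey where the library had no summit. MALAT1, NEAT1 and the first LINC00511 site stay below 1 in every library, and CASC19, ZFAS1 and MIR548XHG lie mostly above 30.

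The number of libraries with a summit at a site was set beside that of 2 other classes, as a description with no test. Coding promoter sites lie within 1 kb of a coding TSS (15615 sites), and other sites lie more than 2 kb from every coding TSS and more than 1 kb from any lncRNA TSS (14666 sites), and 2795 sites were in none of the 3 classes. Of lncRNA promoter sites, 558 (41.3%) had a summit in 1 library, beside 31.9% of coding and 65.0% of other sites. All 6 libraries had a summit at 140 lncRNA sites (10.4%), beside 16.6% of coding, 1.60% of other and 8.75% of all POL2 sites. With lists of equal length all 6 libraries had a summit at 89 of 444 lncRNA sites (20.0%), beside 27.6% of coding, 6.58% of other and 22.5% of all sites. At least 2 WT libraries had a summit at 362 members (26.8%), beside 23.2% of all POL2 sites. At least 2 SLK-KO libraries had one at 660 (48.9%), beside 40.8% of all sites. Both conditions were met by 321 members (23.8%) and 20.2% of all sites. Without WT replicate 2 the count over all remaining libraries was 249, and the count for at least 2 WT libraries was 170 without WT replicate 1 and 166 without WT replicate 3. For these counts the share over all POL2 sites is not given. Libraries share sites, so they are not independent samples of sites, and p-values over libraries measure the spread between these libraries only.

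**Figure D2:**
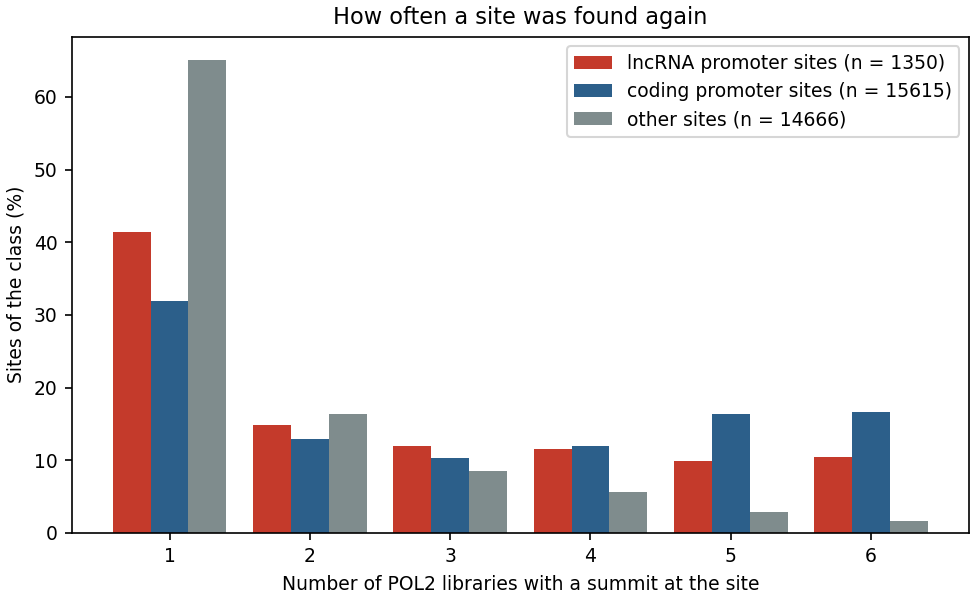
Percent of the sites of each class (y axis) by the number of POL2 libraries with a summit (x axis, 1 to 6), for 1350 lncRNA promoter, 15615 coding promoter and 14666 other sites. LncRNA sites lie between the other classes at 1 library (41.3%) and at 6 libraries (10.4%).

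Members found in more libraries lay closer to the TSS, with more CpG. The median distance to the TSS was 322.5 bp for sites of 1 library and 25 bp for those of 6. Distances and the MYC window run from the edges of a site, which spans the summits of all its libraries. A site of more libraries can thus be wider, nearer a TSS and nearer a MYC summit by construction, and this was not tested. The median CpG observed over expected was 0.352 in 1 library, 0.767 in 5 and 0.741 in 6, and the share with a MYC summit in any library was 1.79% in 1 library and 15.0% in 6. Sites inside coding genes were 24.4% of those of 1 library and 12.1% of those of 6.

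Around the TSS, POL2 summits of both promoter classes peaked just downstream. In each library 47.2% to 51.7% of lncRNA sites had their summit from 100 bp before to 200 bp after the TSS, beside 66.1% to 71.2% of coding sites. The difference averaged −18.9 percentage points, lower in 6 of 6 libraries, and is given with no test because the window was set after the profile was seen and distance to the TSS chose the members. The median summit lay 29 to 36 bp downstream of a lncRNA TSS and 21 to 24 bp downstream of a coding TSS. Summits downstream of the TSS were 60.0% ± 1.23 of lncRNA and 61.8% ± 0.798 of coding summits (SD, n = 6), a difference of −1.79 points (exact two-sided sign-flip p = 0.031, adjusted 0.0330). At equal list length this difference was −0.154 points and no longer passed.

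**Figure D3:**
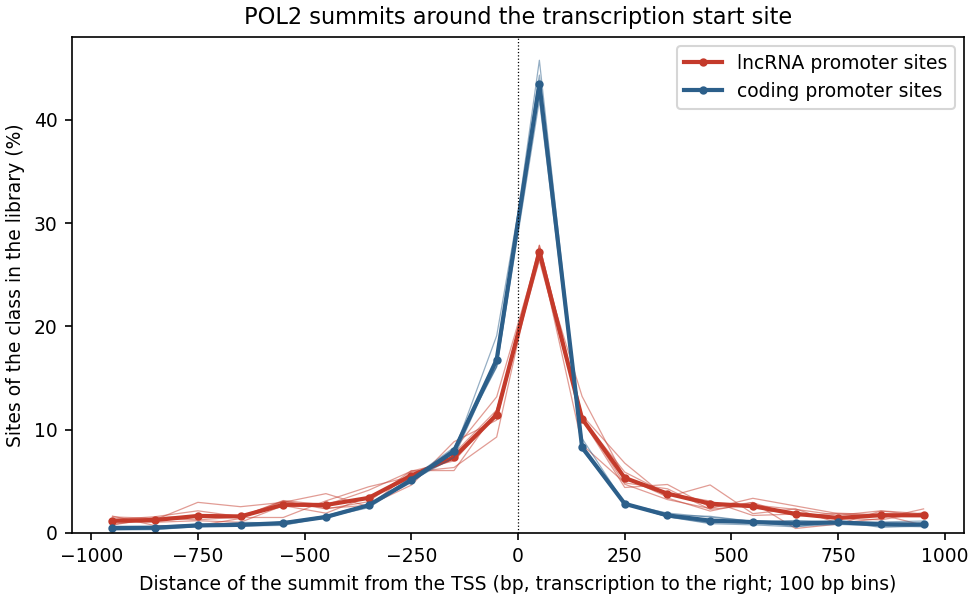
Percent of sites of a class (y axis) by distance of the summit from the TSS in 100 bp bins (x axis, transcription to the right), with thin lines for the 6 libraries and thick lines for their mean. Both promoter classes peak in the first bin downstream, with fewer lncRNA than coding sites there and more further out.

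Short motifs and CpG were counted in 201 bp around each site centre on both strands, with CpG given as observed over expected. The E-box, which MYC binds with its partner MAX, was searched as CACGTG. The core of the TATA box, which places the start of transcription, was searched as TATAAA. The box bound by the factor NF-Y was searched as CCAAT. The GC box of the Sp family of factors was searched as GGGCGG. The AP-1 site, bound by Fos and Jun proteins, was searched as TGACTCA. The site of ETS family factors was searched as CCGGAAGT. None of the 6 contains another. Over all 34426 sites CACGTG was in 3.35%, TATAAA in 8.76%, CCAAT in 19.4%, GGGCGG in 25.3%, TGACTCA in 5.03% and CCGGAAGT in 1.82%. Among the 1350 members the same shares were 3.04%, 6.96%, 19.4%, 25.0%, 6.07% and 1.70%. A match describes letters in the window and does not show binding.

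Per library, lncRNA promoter sites had a median CpG ratio of 0.607 ± 0.0447, below the 0.852 ± 0.0143 of coding promoters and above the 0.244 ± 0.0116 of other sites (SD, n = 6 libraries). Differences had 1 sign in all 6 libraries (exact sign-flip p = 0.031 for each, the smallest possible, adjusted 0.0330 over 19 tests). The adjusted value is this low only because most of the 19 tests shared that smallest p. The GC box was in 31.3% ± 2.98 of lncRNA sites, 50.8% ± 1.24 of coding sites and 8.96% ± 0.903 of other sites, and the ETS site in 2.28% ± 0.147, 5.24% ± 0.243 and 0.205% ± 0.0741. For both motifs the lncRNA sites differed from each other class with the same exact p of 0.031 (adjusted 0.0330).

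The AP-1 site, the TATA core and the CCAAT box lay the other way. TGACTCA was in 5.88% ± 0.530 of lncRNA sites, 2.23% ± 0.154 of coding and 8.43% ± 0.580 of other sites. TATAAA was in 6.99% ± 1.29, 4.02% ± 0.680 and 12.0% ± 0.694, and CCAAT in 18.7% ± 1.07, 15.8% ± 0.490 and 21.9% ± 0.512. Each of these differences from coding and from other sites had an exact sign-flip p of 0.031 (adjusted 0.0330). With 250 bp on each side of the centre the CCAAT difference from coding sites was 0.0870 points and no longer passed. CACGTG was in 2.52% ± 0.478 of lncRNA sites, below the 4.28% ± 0.259 of coding sites (difference −1.76 points, exact p = 0.031, adjusted 0.0330). Against the 2.63% ± 0.517 of other sites the difference was −0.109 points (exact p = 0.844), and with 250 bp on each side it was 2.37 points with the sign turned.

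**Figure D4:**
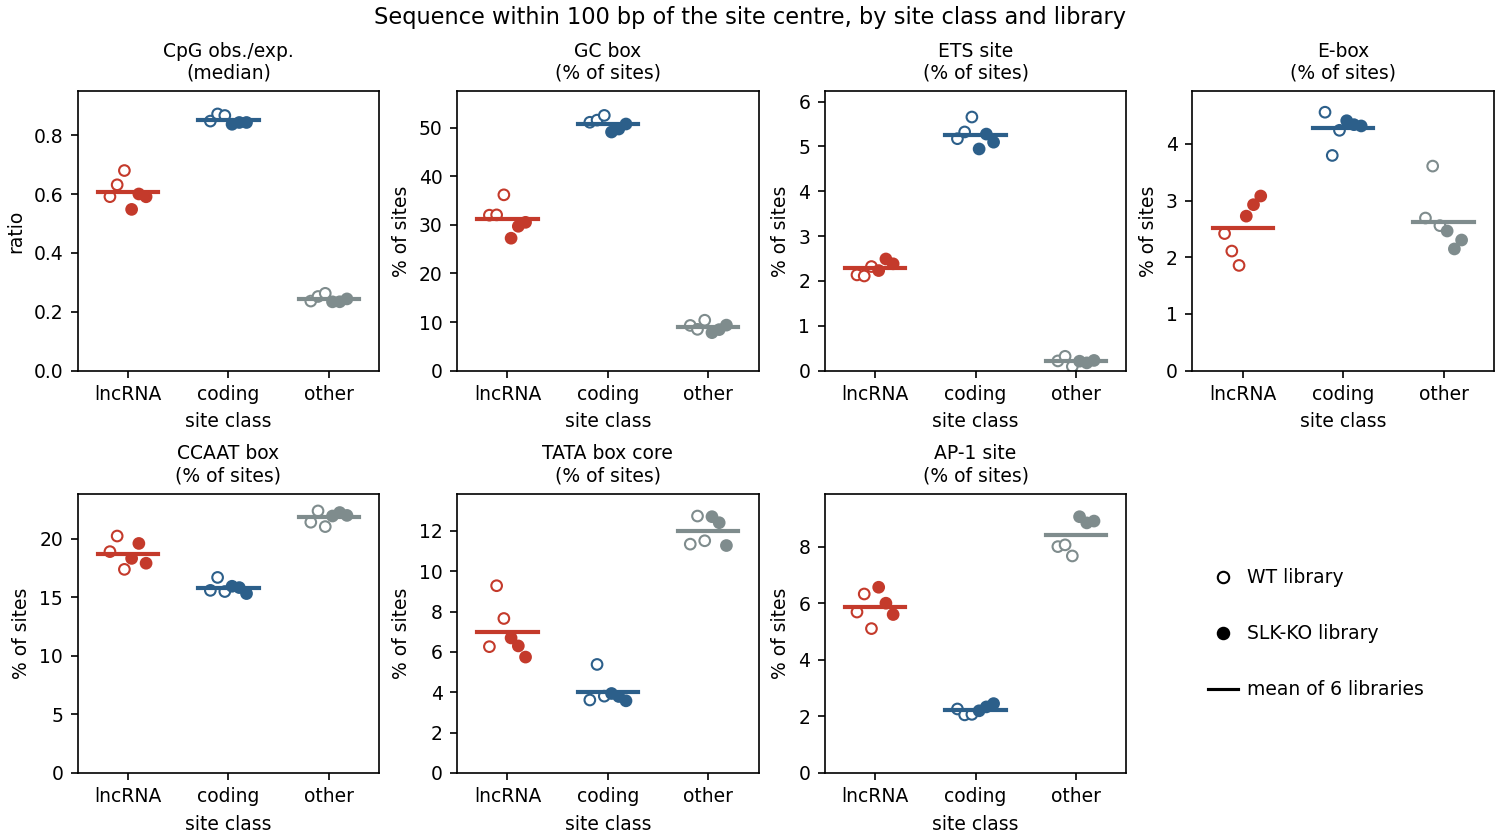
CpG observed over expected (ratio) and percent of sites with each motif (y axes), for lncRNA promoter, coding promoter and other sites, with open points for WT and filled points for SLK-KO libraries and lines for means of 6. LncRNA sites lie between coding and other sites in every panel except the E-box, where they overlap the other sites.

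Within a library, lncRNA promoter sites had a median rank percentile of 47.2 ± 2.51, worse than the 37.5 ± 3.96 of coding sites and better than the 70.6 ± 1.36 of other sites (SD, n = 6 libraries). The difference from coding sites was 9.70 (exact sign-flip p = 0.031, adjusted 0.0330), worse in 6 of 6 libraries. When every list was reduced to its 5047 best-scored summits, the difference was 0.677 (exact sign-flip p = 0.719, adjusted 0.759). The difference from other sites was −23.3 (exact p = 0.031, adjusted 0.0330).

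A MYC summit within 250 bp, in the MYC library with the same number, was found at 8, 4 and 4 lncRNA sites in WT and 28, 34 and 21 in SLK-KO. Shares were 1.14% (Wilson 95% interval 0.578 to 2.23), 1.69% (0.658 to 4.26) and 0.928% (0.361 to 2.36) in WT and 3.47% (2.41 to 4.97), 4.98% (3.58 to 6.88) and 2.94% (1.93 to 4.45) in SLK-KO. The intervals cover counting error only. Over the 6 libraries the share averaged 2.52% ± 1.57, below the 4.08% ± 2.41 at coding sites (difference −1.56 points, exact p = 0.031, adjusted 0.0330) and above the 0.691% ± 0.561 at other sites (difference 1.83 points, same p). With lists of equal length, the MYC lists also cut to 201 summits each, the difference from coding sites was −0.0964 points (exact p = 0.281, adjusted 0.314).

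Of the 1350 members, 72 (5.33%) had a MYC summit in at least 1 library, beside 8.84% of coding and 1.24% of other sites. Over all POL2 sites the share was 4.89%, near that of the members. CACGTG was in 8.33% of these 72 windows and in 2.74% of the members without MYC. The 4 members with a MYC summit in all 6 MYC libraries were ENSG00000267546, LINC02960, PVT1 and ENSG00000286874. ENSG00000267546 (chr17:76557800-76557838) had POL2 ranks 681, 2095 and 498 in WT and 392, 456 and 414 in SLK-KO. The LINC02960 site (chr14:90383459-90383546) had POL2 ranks 319 and 276 in WT 2 and 3 and 804, 1460 and 913 in SLK-KO, and in WT 1 a separate site of the gene 281 bp away ranked 269. PVT1 (chr8:127794559-127794921) ranked 3225, 2596 and 3038 in WT and 3515 and 5153 in SLK-KO 2 and 3, and in SLK-KO 1 a separate site of the gene ranked 5667. ENSG00000286874 had POL2 summits in 1 WT and 3 SLK-KO libraries. LINC01730, whose E-box is printed above, and GASAL1 had MYC in 5 libraries and CACGTG, MRPL45P2 and MIRLET7A1HG in 4 each.

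Between genotypes, more lncRNA promoter sites were listed in SLK-KO, but their share of the list did not differ beyond the spread between libraries. WT libraries held 703, 237 and 431 and SLK-KO libraries 807, 683 and 714, with no SLK-KO library below WT 2 or WT 3 and WT 1 between SLK-KO 2 and 3. The log2 difference was 0.82, with means of 8.70 ± 0.79 (WT) and 9.52 ± 0.12 (SLK-KO; SD, n = 3 libraries; exact permutation p = 0.2, adjusted 0.25, with 0.1 the smallest p possible). With lists of equal length it was 0.06. Their share of the sites in a list was 4.12%, 4.73% and 4.36% in WT and 4.26%, 4.44% and 4.40% in SLK-KO, a difference of −0.0372 points (exact permutation p = 0.9) that was 0.180 at equal length.

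Per 100 coding promoter sites there were 7.16, 6.57 and 6.28 lncRNA sites in WT and 7.80, 7.41 and 7.29 in SLK-KO, without overlap. The difference was 0.833 (exact permutation p = 0.1, adjusted 0.167), and at equal list length it was −0.0947. The median rank percentile was 49.0 ± 2.25 in WT and 45.4 ± 1.03 in SLK-KO, a difference of −3.58 (exact permutation p = 0.1, adjusted 0.167) that was −0.409 at equal length. Coding sites also had a lower mean in SLK-KO (39.6 in WT, 35.4 in SLK-KO), and other sites had 71.1 and 70.0. The share with a MYC summit was 1.25% ± 0.392 in WT and 3.80% ± 1.06 in SLK-KO, 2.55 points more (exact permutation p = 0.1, adjusted 0.167). The rise was not particular to lncRNA sites. Mean shares were 1.99% in WT and 6.17% in SLK-KO at coding sites, and 0.216% and 1.17% at other sites. With POL2 lists of equal length and every MYC list cut to its 201 best-scored summits, the difference at lncRNA sites was 0.212 points. Then 4, 4 and 4 WT and 5, 5 and 4 SLK-KO members had a MYC summit. MYC lists of equal length cannot show a larger number of MYC summits in SLK-KO. At equal length the number of lncRNA sites was 214, 233 and 211 in WT and 227, 233 and 226 in SLK-KO. None of the 5 genotype differences passed 0.05, which this design cannot reach.

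**Figure D5:**
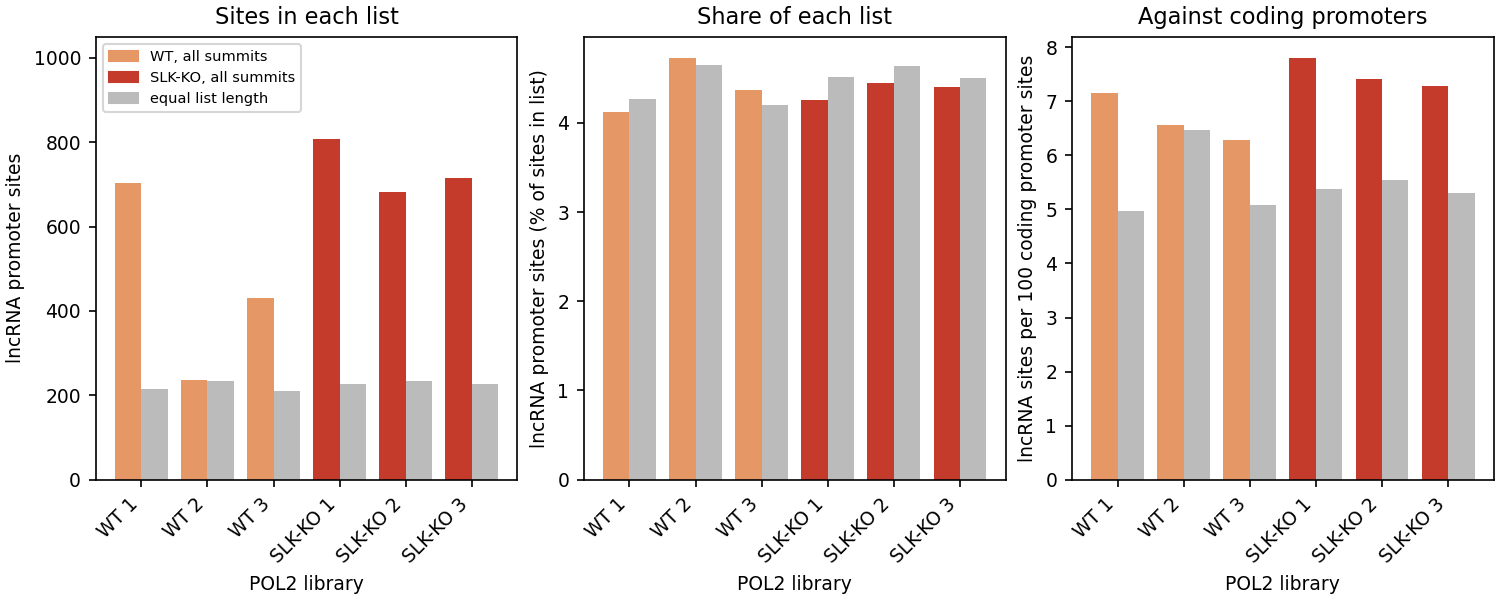
LncRNA promoter sites in each POL2 library, as a number, as a percent of the sites in the list and per 100 coding promoter sites (y axes), with coloured bars for full lists and grey bars for lists of equal length. WT 2 has 237 sites and SLK-KO 1 has 807 in the full lists, while equal lists hold 211 to 233.

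In single sites, 56 of 1350 (4.15%) had a summit in all 3 SLK-KO and no WT library, where 2.98% of all POL2 sites did. In the other direction 1 member (0.0741%) had a summit in all 3 WT and no SLK-KO library, where 0.107% of all sites did. Coding sites gave 421 (2.70%) and other sites 485 (3.31%) in the first class. Of the 56 sites, 50 had a median rank beyond the length of the shortest WT list and 0 beyond that of the longest. A WT summit lay within 1 kb of 12 of them and not of the other 44. Without WT replicate 1 the count was 145, without SLK-KO replicate 2 it was 90 and without SLK-KO replicate 3 it was 100. The count in the other direction was 14 without WT replicate 2, 7 without WT replicate 1 and 3 without WT replicate 3 or SLK-KO replicate 1. Leaving out a library also loosens the call, which then rests on the libraries that remain. The same counts over all POL2 sites are not given, so these say nothing particular to the members. At equal list length 10 of 444 lncRNA sites (2.25%) were in the first class, where 2.52% of all sites were, and 4 (0.901%) in the second, where 1.08% of all sites were.

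The best-ranked SLK-KO-only site was that of ENSG00000266114 (chr17:10791037-10791075), with ranks 3748, 5486 and 3083 and the nearest WT summit 61137 bp away. ENSG00000290940, ENSG00000275805 (inside KCTD1), ENSG00000237301 and PELO-AS1 followed, the last with a WT summit 525 bp away. ENSG00000237301 (chr1:15603480-15603515) ranked 4344, 4464 and 4546, and it was the 1 member in this class at both list lengths. LINC01572 ranked 6340, 3425 and 5021, and LINC-PINT (chr7:131107978-131108063) ranked 6206, 4158 and 5822 with a WT summit 469 bp away. LINC01138, ENSG00000290061 (a WT summit 300 bp away) and ZBTB7C-AS1 were the others of the best 10. A site of LUCAT1, a stress-induced lncRNA (chr5:91311605-91311647), ranked 10860, 6167 and 7804, and another site of the gene 737 bp away had a WT 1 summit at rank 9508. The WT-only site was that of ADIRF-AS1 (chr10:86971895-86972131), with ranks 3342, 4268 and 7832, the nearest SLK-KO summit 756 bp away and the coding TSS of MMRN2 2414 bp away.

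Of the 10 sites that were SLK-KO-only at equal length, 9 had a summit further down the full WT 1 list, and 1 had none in any WT list. LINC02774 ranked 2781, 1718 and 2200 in SLK-KO and 8461 in WT 1. PRECSIT ranked 3685, 3614 and 3350 in SLK-KO and 8052 in WT 1, and GAS6-AS1 ranked 2840, 4062 and 3431 in SLK-KO and 14929 in WT 1. All 4 sites that were WT-only at equal length, among them SUGT1P3, had summits in full SLK-KO lists, at ranks 5198 to 9569.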

How the data were processed

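POL2 and MYC ChIP-seq summit lists of WT and SLK-KO PC-3 cells were used, 12 lists of 20 samples. Libraries made with IgG or from Input were left out, and some items are not reported here. Per the submitters' processing notes, reads were processed with nf-core/chipseq 2.1.0, with Trim Galore 0.6.7, BWA 0.7.18-r1243 and MACS3 3.0.1 among the tools, against GRCh38.p14. The deposited score of each summit was taken for the −log10 q-value of the authors' caller, since no POL2 list went below 1.30103, the −log10 of 0.05. Peaks were called per library. The control library and the caller's options are not given in the sources used here.

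A TSS was the 5′ end of every transcript of GENCODE release 44, and distances run from the edge of a site. Differences within libraries were tested by exact two-sided sign flips (64) and genotypes by exact permutation (20 relabellings), with Benjamini-Hochberg adjustment over 19 and 5 tests. Counting of genotype-only sites was tested on simulated data. Settings varied were chaining, windows, TSS definition, list length, score minimum, sites inside coding genes, a replicate block and each library left out. Leaving out sites near small RNA genes was chosen after seeing the data, as were the cell type markers, the window around the TSS whose share of summits was compared, the equal-length site names and the equal-length values of recurrence and of the E-box difference between genotypes. Members and lists were chosen with earlier results of these data known. Named were members of 7 gene lists (those in all 6 libraries and up to 4 others per list), the 10 best-ranked, up to 10 SLK-KO-only and WT-only, up to 8 with most MYC summits, the 5 genes with most sites and the sites at each distance limit. The lists also gave names outside this rule: genes without a site, and the next best members with no small RNA TSS within 1 kb. Analyses ran in Python 3.11.15 (scipy 1.17.1 and numpy 2.4.6 for tests, pandas 2.3.3, pysam 0.24.0 for sequence, matplotlib 3.10.9 for plots).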

Additional observations from a re-analysis of the deposited data

Results flagged for a closer look

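CACGTG was less frequent at lncRNA promoter sites than at other sites in all 3 WT libraries and more frequent in all 3 SLK-KO libraries. The differences were −0.274, −1.50 and −0.702 percentage points in WT and 0.262, 0.781 and 0.777 in SLK-KO, with means of −0.825 and 0.607. The difference between the genotypes was 1.43 points. It was flagged because, of 19 within-library comparisons, only this one had a sign that split the genotypes. Any such split gives an exact permutation p of 0.1, the smallest possible with 3 against 3 libraries. The p was therefore fixed by the choice and carries no weight. At equal list length the differences were −0.430, −1.12 and −1.79 points in WT and −0.672, 0.344 and −0.0177 in SLK-KO, so 1 of 3 SLK-KO libraries kept the higher share and the difference between genotypes was 0.997. In all, 41 of 1350 members hold the motif.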

How the results depend on the processing

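Under settings other than leaving out a library, 185 within-library comparisons kept direction and side of the threshold, 17 lost the threshold and 6 turned. Among genotype comparisons 50 kept their direction and 7 turned, and among counts 38 stayed close to the reported count and 12 moved further. The E-box difference from other sites (−0.109 points) turned to 0.352 and 0.835 with chaining at 100 and 500 bp, 0.540 with gene 5′ ends, 0.164 with a score of at least 5, 2.37 with 250 bp each side and 0.0314 without sites near small RNA genes. The genotype difference in share turned to 0.000997 (500 bp chaining), 0.00688 and 0.0963 (500 bp and 2 kb windows), 0.180 (equal length), 0.192 (score) and 0.0375 (small RNA), and that per 100 coding sites to −0.0947 (equal length). The downstream share lost the threshold at −1.51 and −1.65 (chaining), −0.243 (500 bp), −0.765 (5 kb from coding), −0.154 (equal length), −0.797 (score) and −0.481 (no coding genes). MYC against coding lost it at −1.45 (500 bp chaining), −1.16 (500 bp window), −0.0964 (equal length), −1.02 (score) and −0.869 (MYC within 100 bp). CCAAT against other sites lost it at −2.81 (5′ ends) and −1.41 (score), TGACTCA against other at −1.21 (2 kb), CCAAT against coding at 0.0870 (250 bp) and rank against coding at 0.677 (equal length). The WT-only count was 2 (100 bp chaining, 2 kb, 5′ ends), 4 (equal length) and 0 (500 bp, 5 kb, score, no coding genes). At equal length the other counts were 10 SLK-KO-only, 199 in at least 2 WT, 212 in at least 2 SLK-KO and 89 in all. The cause was not tested, except that shorter lists hold fewer sites.

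Leaving out each library in turn gave these ranges, and 5 libraries cannot bring a sign-flip p below 0.0625, so lost calls there say nothing about stability. Genotype differences ranged over 0.41 to 1.19 (log2 number), −0.188 to 0.130 (share), 0.650 to 1.07 (per 100 coding), −4.57 to −2.21 (percentile) and 2.12 to 2.99 (MYC). Differences from coding sites ranged over 9.13 to 10.6 (percentile), −0.248 to −0.233 (CpG), −1.74 to −1.35 (MYC), −2.14 to −1.31 (downstream), −1.87 to −1.46 (CACGTG), 2.57 to 3.13 (TATAAA), 2.06 to 3.52 (CCAAT), −20.1 to −19.1 (GGGCGG), 3.02 to 4.01 (TGACTCA), −3.15 to −2.72 (CCGGAAGT). Differences from other sites ranged over −23.8 to −23.0 (percentile), 0.359 to 0.376 (CpG), 1.35 to 2.07 (MYC), −0.304 to 0.224 (CACGTG), −5.50 to −4.87 (TATAAA), −3.90 to −2.68 (CCAAT), 21.5 to 23.0 (GGGCGG), −3.20 to −2.11 (TGACTCA), 1.85 to 2.20 (CCGGAAGT). Counts over the libraries that remained ranged over 57 to 145 (SLK-KO-only), 1 to 14 (WT-only), 166 to 362 (at least 2 WT), 464 to 659 (at least 2 SLK-KO) and 138 to 249 (all libraries).

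Same-numbered POL2 libraries correlated at −0.0300, 0.0206 and −0.0329 in their deviations, so the numbers were not taken to pair them. A replicate block left the genotype differences at 0.82, −0.0372, 0.833, −3.58 and 2.55 (exact p = 0.25, or 1 for the share, with 0.25 the smallest of 8 flips). Depth is unknown, so a site without a summit is not shown to lack polymerase.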

Other observations

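Members were most numerous on chromosome 1 (155) and chromosome 7 (104). The share of eligible lncRNA genes with a member was lowest on chromosome 4 (3.76% of 745) and highest on chromosome 7 (10.8% of 696), with 9.21% on chromosome 1. These shares are given with no test. Members within 1 kb of the end of a coding gene numbered 97 (7.19%). A summit in all 6 libraries was found at 4.12% of these 97 and at 10.9% of the others, and a MYC summit at 0 and at 72.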
